A study of Homo sapiens with 12 samples.

Results

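Transcript levels of 6 genes for surface proteins of B cells were described on 12 single-colour Affymetrix arrays. The genes were MS4A1, CD22, CR2, FCER2, CD79A and CD79B, each found by its own symbol in the array annotation. They were covered by 14 of the 45253 probe sets with a single symbol, and all 6 were among the 15173 genes tested. The arrays came from 3 established human lines labelled as multiple myeloma, JJN3, RPMI-8226 and ARP1, each with 1 array for each of 4 treatments. The treatments were CPI203 at 0.01 µM, LenDex (lenalidomide at 5 µM with dexamethasone at 0.05 µM), Combo (all 3 drugs at these doses) and control. Exposure lasted 6 h. CPI203 inhibits BET bromodomain proteins, which read acetylated histones, lenalidomide redirects the cereblon ubiquitin ligase to the transcription factors IKZF1 and IKZF3, and dexamethasone is a glucocorticoid.

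CD79A and CD79B are the paired signalling chains of the B cell receptor and carry the tyrosine motifs that start its signal. CD22 binds sialic acid and damps that signal, and CR2 (CD21) binds complement fragments on antigen and strengthens it. FCER2 (CD23) is the low-affinity receptor for IgE, and MS4A1 (CD20) is the membrane protein that rituximab recognises. Mature B cells carry most of these proteins, and plasma cells, the normal counterpart of myeloma, have lost or reduced most of them. In RefSeq's GRCh38.p14 annotation, MS4A1 lies at chr11:60455847-60470752, CR2 at chr1:207454328-207489892 and CD79B at chr17:63928740-63932331. On chromosome 19 lie FCER2 at chr19:7688776-7702131, CD22 at chr19:35329187-35347361 and CD79A at chr19:41877279-41881372.

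The marker genes on the arrays did not all go with the myeloma labels. SDC1 (CD138), the defining surface protein of plasma cells, averaged 5.38 on JJN3 arrays and 5.19 on RPMI-8226 arrays, against 12.03 on ARP1 arrays, where the array medians were 5.304 to 5.375 on this log2 scale. PRDM1, the factor that drives plasma cell differentiation, averaged 5.43 on JJN3, 5.38 on RPMI-8226 and 11.31 on ARP1 arrays. CD38 averaged 6.03 on JJN3, 5.72 on RPMI-8226 and 9.12 on ARP1, and JCHAIN 8.15, 5.08 and 13.16. TNFRSF17 averaged 7.01, 7.81 and 11.48, FKBP11 7.90, 8.36 and 11.37, and SLAMF7 8.57, 7.45 and 9.11, in the same order. Some plasma cell genes were still well above the median on JJN3 and RPMI-8226. XBP1, MZB1 and SSR4, of the secretory machinery, averaged 10.51, 10.53 and 11.84 on JJN3 and 10.47, 10.27 and 11.72 on RPMI-8226, against 12.75, 11.94 and 12.89 on ARP1. IRF4, which activated B cells also express, ran the other way, at 12.71 on JJN3, 12.95 on RPMI-8226 and 12.05 on ARP1. CD27 was low on all lines, at 5.28, 5.03 and 4.92. Summed over 12 plasma cell markers, levels were 96.7 to 102.8 on JJN3, 93.1 to 98.5 on RPMI-8226 and 130.5 to 133.6 on ARP1 arrays. Over 7 of 8 B cell markers, which include the 6 genes, the sums were 68.5 to 69.9, 65.8 to 68.1 and 39.1 to 40.0 in the same order of lines. PAX5, the seventh marker in that sum, averaged 7.01, 7.14 and 7.13. Hereafter a line's name stands for the arrays so labelled. The JJN3 and RPMI-8226 arrays correlated at 0.963 to 0.981 with each other over all probe sets, and at 0.867 to 0.887 with ARP1. The JJN3 control array stood apart in immunoglobulin genes, with IGKC at 9.32 against 5.11 to 5.55 on the other JJN3 arrays.

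Promoter windows from RefSeq (GRCh38.p14; 250 bases before to 50 bases after an annotated start) were at hand for 4 of the 6 genes. Windows of 3 genes are shown, those of the gene called with LenDex (CR2) and of the pair that differed between JJN3 and RPMI-8226 (FCER2 and CD79A). Capitals mark motif matches.
CR2, chr1:207454078-207454377, plus strand: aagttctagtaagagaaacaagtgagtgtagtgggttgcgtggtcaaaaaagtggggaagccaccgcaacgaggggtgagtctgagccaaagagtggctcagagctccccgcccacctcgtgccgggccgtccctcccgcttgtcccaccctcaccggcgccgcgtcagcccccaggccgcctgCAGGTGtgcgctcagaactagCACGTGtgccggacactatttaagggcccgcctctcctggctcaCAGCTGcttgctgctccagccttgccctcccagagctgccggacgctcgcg
FCER2, chr19:7702082-7702381, minus strand: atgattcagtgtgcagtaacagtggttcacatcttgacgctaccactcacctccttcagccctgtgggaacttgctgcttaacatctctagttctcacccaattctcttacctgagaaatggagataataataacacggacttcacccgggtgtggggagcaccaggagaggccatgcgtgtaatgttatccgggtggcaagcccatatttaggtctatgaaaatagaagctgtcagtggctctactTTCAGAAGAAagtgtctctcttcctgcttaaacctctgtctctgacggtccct
CD79A, chr19:41877029-41877328, plus strand: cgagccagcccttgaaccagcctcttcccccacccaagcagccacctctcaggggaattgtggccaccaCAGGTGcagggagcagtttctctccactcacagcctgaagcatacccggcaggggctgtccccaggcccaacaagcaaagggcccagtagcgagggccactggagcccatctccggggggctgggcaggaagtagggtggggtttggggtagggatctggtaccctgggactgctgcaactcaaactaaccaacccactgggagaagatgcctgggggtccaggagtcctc
The letters searched on both strands were CCCNNGGG for EBF, ATGCAAAT for the octamer, CAGNTG for the E-box of E2A and CACGTG for the E-box of MYC. The others were ACANNNTGT for the glucocorticoid receptor and 1 form of STAT site, TTC and GAA with 4 bases between them. Other spacings of the STAT site were not searched. In CR2 the capitals are CAGGTG from position -66, CACGTG from -45 and CAGCTG from -1 of the start site. In FCER2 they are TTCAGAAGAA from position -3, and in CD79A CAGGTG from -181. CD22 (chr19:35328937-35329236) held CAGATG from position -1, and the second FCER2 window (chr19:7699392-7699691) held no match. None of these windows held the EBF, octamer or glucocorticoid receptor letters. Among all 35116 windows, 49.94% held CAGNTG, 7.256% CACGTG, 6.439% the STAT letters, 19.07% CCCNNGGG, 5.368% ACANNNTGT and 1.774% ATGCAAAT. No motif overlapped another in these windows.

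All 6 genes, each by its probe set with the highest mean, were higher on JJN3 and on RPMI-8226 arrays than on ARP1 arrays. The differences ran from 4.01-fold for CD79B to 110-fold for MS4A1 on JJN3, and from 3.72-fold to 108-fold for the same genes on RPMI-8226. On ARP1 the genes lay near the array medians, so a low level there cannot be told apart from none and the folds may understate the differences. The median difference of the 6 genes was 5.18 on the log2 scale for JJN3 and 4.75 for RPMI-8226, beside 0.01 over all genes tested in each comparison. The 6 of 6 called higher stand beside 24.2% of all genes called higher on JJN3 and 23.3% on RPMI-8226 (limma, Benjamini-Hochberg adjusted p under 0.05). MS4A1 and FCER2 passed the level filter only through the lines where they were high. For CD79B the highest-mean rule took the probe set with a gap over flat ones. The count was thus partly set by these rules. Without the level filter all 6 were still called, beside 38.6% of all genes called in either direction on JJN3 and 38.2% on RPMI-8226. All values are bulk RNA levels, in which fewer cells with a transcript and less of it per cell cannot be told apart.

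**Figure D1:**
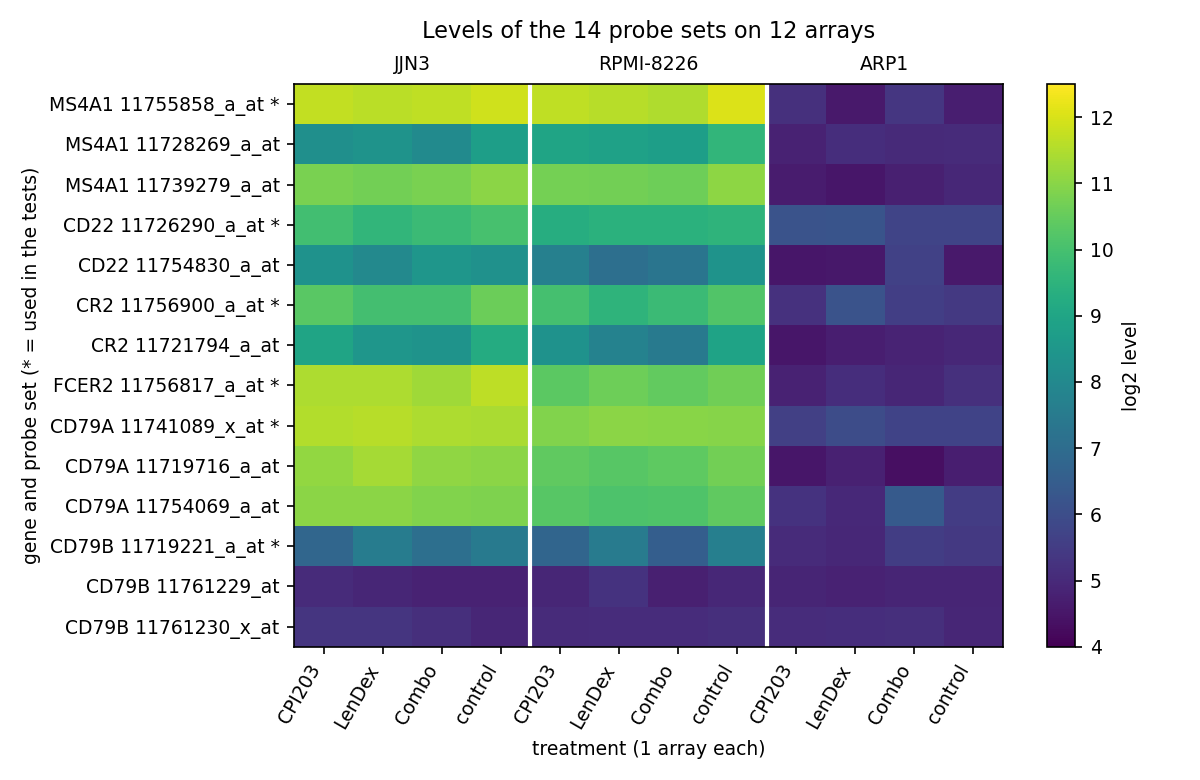
Log2 level (colour) of the 14 probe sets (rows) on the 12 arrays (columns), grouped by line, with 1 array per treatment; asterisks mark the probe set used for each gene in the tests. The used probe sets of MS4A1, FCER2 and CD79A lie between 10.37 and 12.06 on the JJN3 and RPMI-8226 arrays and below 6 on the ARP1 arrays, and 2 of the 3 CD79B probe sets stay near 5 throughout.

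Among the signalling chains, CD79A had levels of 11.52, 11.58, 11.45 and 11.43 on the CPI203, LenDex, Combo and control arrays of JJN3 and 10.89, 11.02, 10.99 and 10.96 on those of RPMI-8226, against 5.62, 5.99, 5.71 and 5.71 on those of ARP1. Every JJN3 and RPMI-8226 array was above every ARP1 array, and the 4 arrays of JJN3 spanned 11.43 to 11.58. CD79A was 5.74 higher on JJN3 (SE 0.08, adjusted p = 2.249e-11, limma) and 5.21 higher on RPMI-8226 (adjusted p = 4.175e-11, limma) than on ARP1.

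CD79B, its partner chain, had levels of 6.80, 7.56, 7.11 and 7.5 on the CPI203, LenDex, Combo and control arrays of JJN3 and 6.77, 7.53, 6.55 and 7.68 on those of RPMI-8226, against 5.05, 4.94, 5.54 and 5.42 on those of ARP1. The lines did not overlap, but the lowest RPMI-8226 array was only about 1 log2 unit above the highest ARP1 array. The difference from ARP1 was 2.01 on JJN3 (SE 0.21, adjusted p = 2.383e-05, limma) and 1.90 on RPMI-8226 (adjusted p = 3.621e-05, limma). It rests on this probe set. Of the other CD79B probe sets, 1 differed by 0.10 on JJN3 (adjusted p = 0.4562, limma) and 0.02 on RPMI-8226 (adjusted p = 0.8748, limma). The last was too low to be tested. Levels of different probe sets cannot be set against each other, so these values do not rank CD79B below CD79A in amount.

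CD22, the inhibitory coreceptor, had levels of 9.92, 9.60, 9.81 and 10.02 on the CPI203, LenDex, Combo and control arrays of JJN3 and 9.28, 9.43, 9.44 and 9.53 on those of RPMI-8226, against 6.16, 6.21, 5.73 and 5.74 on those of ARP1. Its difference from ARP1 was 3.88 on JJN3 (SE 0.14, adjusted p = 9.666e-09, limma) and 3.46 on RPMI-8226 (adjusted p = 1.95e-08, limma). The activating coreceptor CR2 had levels of 10.34, 9.95, 9.95 and 10.58 on JJN3 and 10.00, 9.53, 9.79 and 10.20 on RPMI-8226, against 5.22, 6.16, 5.59 and 5.40 on ARP1, in the same order of treatments. CR2 was 24.5-fold higher on JJN3 (log2 4.61, SE 0.23, adjusted p = 7.745e-08, limma) and 19.5-fold higher on RPMI-8226 (adjusted p = 1.227e-07, limma), with no overlap between either line and ARP1.

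FCER2, the IgE receptor, had levels of 11.45, 11.46, 11.30 and 11.64 on the CPI203, LenDex, Combo and control arrays of JJN3 and 10.37, 10.64, 10.46 and 10.66 on those of RPMI-8226, against 4.82, 5.12, 4.91 and 5.19 on those of ARP1. The JJN3 arrays were thus the highest and the ARP1 arrays the lowest, without overlap. FCER2 was 87.8-fold higher on JJN3 (log2 6.46, SE 0.08, adjusted p = 2.023e-11, limma) and 46.0-fold higher on RPMI-8226 (adjusted p = 3.392e-11, limma) than on ARP1. CR2 and FCER2 are also genes of follicular dendritic cells, and sums over 8 markers of those cells, both genes included, were 51.2 to 54.1 on JJN3, 50.9 to 54.7 on RPMI-8226 and 40.6 to 44.4 on ARP1. Of the other 6 markers, CXCL13, FDCSP, CLU, PDPN and MADCAM1 averaged 4.78 to 5.12 on JJN3 and 4.82 to 5.21 on RPMI-8226, under the array medians. VCAM1, an adhesion molecule, was the exception, at 4.96 to 7.04 on JJN3 and 5.69 to 9.07 on RPMI-8226, against 4.53 to 4.80 on ARP1. The part of such cells in the CR2 and FCER2 levels was not tested.

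MS4A1 had levels of 11.71, 11.63, 11.70 and 11.89 on the CPI203, LenDex, Combo and control arrays of JJN3 and 11.70, 11.60, 11.48 and 12.06 on those of RPMI-8226, against 5.18, 4.59, 5.33 and 4.70 on those of ARP1. The JJN3 and RPMI-8226 arrays overlapped and both lay far above ARP1. The difference was 6.78 on JJN3 (SE 0.17, adjusted p = 7.139e-10, limma) and 6.76 on RPMI-8226 (adjusted p = 5.313e-10, limma).

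**Figure D2:**
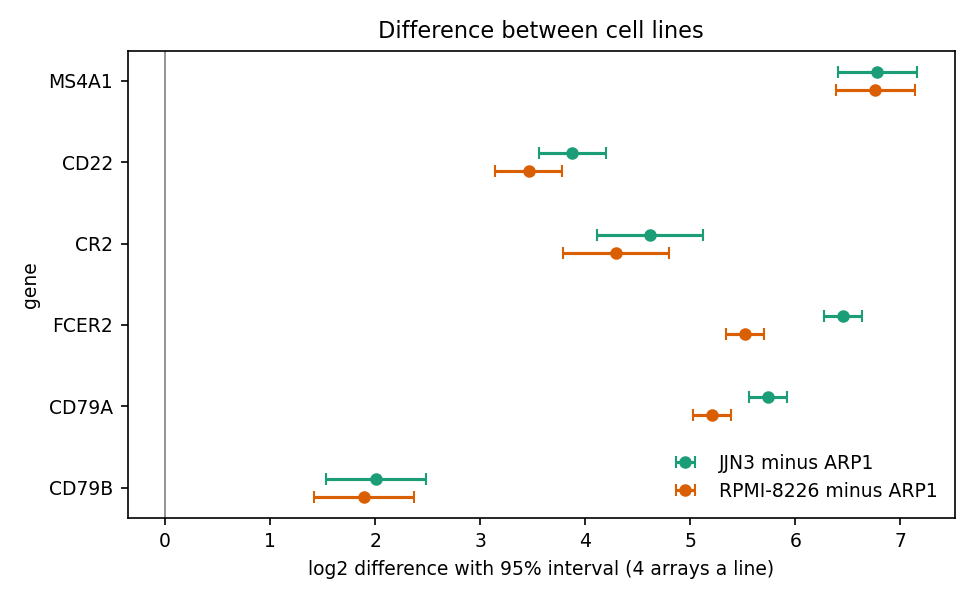
Difference in log2 level from ARP1 (x axis) for each gene, with its 95% interval, for JJN3 and RPMI-8226 arrays (4 arrays a line). Every interval lies above 0, from CD79B near 2 to MS4A1 near 6.8, and the JJN3 and RPMI-8226 intervals do not overlap for FCER2 and CD79A.

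Between JJN3 and RPMI-8226, FCER2 and CD79A were higher on JJN3, by 1.91-fold and 1.44-fold. FCER2 averaged 11.47 ± 0.14 on JJN3 and 10.53 ± 0.14 on RPMI-8226 (SD, n = 4 arrays each, 1 per treatment), a difference of 0.93 (SE 0.08, adjusted p = 7.175e-05, limma). CD79A averaged 11.49 ± 0.07 on JJN3 and 10.96 ± 0.05 on RPMI-8226 (SD, n = 4 arrays each, 1 per treatment), a difference of 0.53 (SE 0.08, adjusted p = 0.002173, limma). The JJN3 and RPMI-8226 arrays did not overlap for either gene. The share of all genes without overlap was not counted for any comparison of lines. These 2 of 6 genes stand beside 8.52% of all genes called higher on JJN3 than on RPMI-8226. Without the JJN3 control array, the differences were 0.92 (adjusted p = 0.0006618, limma) for FCER2 and 0.54 (adjusted p = 0.008574, limma) for CD79A.

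The other 4 genes did not pass this test. CD22 averaged 9.84 ± 0.18 on JJN3 and 9.42 ± 0.10 on RPMI-8226 (SD, n = 4 arrays each, 1 per treatment), with a difference of 0.42 (95% interval 0.10 to 0.73, adjusted p = 0.08148, limma), and its arrays did not overlap. CR2 averaged 10.21 ± 0.31 on JJN3 and 9.88 ± 0.29 on RPMI-8226 (SD, n = 4 arrays each, 1 per treatment), with an interval of -0.18 to 0.83. The intervals were -0.37 to 0.58 for CD79B and -0.36 to 0.40 for MS4A1. With a fit on these 8 arrays alone, CD22 (adjusted p = 0.02854) and CR2 (adjusted p = 0.03663) also passed in limma. In order of level, JJN3 came before RPMI-8226 for FCER2 and CD79A, this order was not settled for CD22 and CR2, whose calls depended on the fit, and ARP1 was last for all 6 genes. For CD79B and MS4A1 the difference did not pass in either fit, although 1 MS4A1 probe set gave another result when tested singly, as described with the probe sets. Some markers of other cells also differed between these lines: HBG1, a fetal globin, averaged 13.27 on JJN3, 7.66 on RPMI-8226 and 12.31 on ARP1, and KRT18, an epithelial keratin, 9.20, 5.57 and 6.76. The other erythroid markers with a probe set, HBB, ALAS2, EPB42 and AHSP, averaged 4.71 to 5.68 over the lines. The erythroid sums given next thus differ mostly through HBG1. Sums over 5 of 7 erythroid markers were 33.2 to 33.9 on JJN3, 26.5 to 28.6 on RPMI-8226 and 32.2 to 33.1 on ARP1. Over 6 epithelial markers they were 38.6 to 39.8, 30.3 to 30.8 and 31.9 to 33.9, and over 10 T cell markers 52.4 to 53.4, 49.0 to 52.3 and 51.9 to 54.1. Sums for 10 monocyte and 7 fibroblast markers were alike in the lines, at 49.8 to 52.2 and 34.3 to 35.4. The part of other cells in the line differences was not tested.

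The drug comparisons asked whether a treatment changed the genes, with the line as a block. TSC22D3, a glucocorticoid target, was higher on the LenDex and Combo arrays of every line, at 12.71 and 13.22 against 9.98 and 9.73 on the CPI203 and control arrays of JJN3, 12.57 and 13.11 against 9.96 and 9.57 on RPMI-8226, and 12.14 and 12.09 against 7.53 and 7.59 on ARP1. HEXIM1, a gene known to rise under BET inhibition, read 11.74 and 11.66 on the CPI203 and Combo arrays of JJN3, against 10.28 on both other arrays, and 11.71 and 11.53 against 9.83 and 9.85 on RPMI-8226. On ARP1 it moved much less, with 10.58 and 10.48 on the CPI203 and Combo arrays against 10.24 and 10.36 on the LenDex and control arrays.

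Over all 12 arrays no drug comparison called any of the 6 genes in limma at an adjusted p under 0.05. With CPI203 against control, changes ran from -0.66 to 0.02 on the log2 scale, 0 of 6 genes were called beside 0.00659% of all genes, and 2 had an unadjusted p under 0.05. These were CD79B, at -0.66 (SE 0.25, adjusted p = 0.226, limma), and FCER2, at -0.29 (SE 0.09, adjusted p = 0.1785, limma). With LenDex against control, changes ran from -0.28 to 0.16, 0 were called beside 0.461% of all genes, and 0 had an unadjusted p under 0.05. With Combo against control, changes ran from -0.47 to 0.02, 0 were called beside 9.15% of all genes, and FCER2, at -0.27 (SE 0.09, adjusted p = 0.1006, limma), was the 1 gene with an unadjusted p under 0.05. These 3 comparisons share their control arrays.

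Averaged over both levels of the other treatment, with 6 arrays against 6, 0 genes were called with CPI203 (limma; 7.28% of all genes) and 0 with LenDex (4.25%). For CPI203 2 genes had an unadjusted p under 0.05, FCER2 at -0.24 (SE 0.07, adjusted p = 0.05891, limma) and CD79B at -0.47 (SE 0.17, adjusted p = 0.1319, limma). For LenDex 0 did, with changes from -0.15 to 0.10. The CPI203 average of FCER2 was -0.29 on ARP1, -0.18 on JJN3 and -0.24 on RPMI-8226. On ARP1 it read 4.82 to 5.19, under the array medians, so part of the FCER2 value comes from levels near background. The interaction of CPI203 with LenDex ran from -0.12 to 0.38, with 0 genes called, 0% of all genes called and 0 genes at an unadjusted p under 0.05 (limma).

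Since ARP1 lay near the array median, where a fall could hardly be measured, the average effects were also fitted on the 8 JJN3 and RPMI-8226 arrays. CD79B fell with CPI203 and CR2 fell with LenDex, and the other genes did not pass. All 6 changes with CPI203 were below 0 and ranged from -0.76 to -0.03, with a median of -0.10 beside 0.01 over all genes. With LenDex they ranged from -0.48 to 0.06, with a median of -0.09 beside 0.01. The 1 of 6 genes called lower with CPI203 stands beside 7.72% of all genes called lower, and the 1 of 6 with LenDex beside 2.66%.

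CD79B read 6.80 and 7.11 with CPI203 (CPI203 and Combo arrays) against 7.56 and 7.5 without (LenDex and control arrays) on JJN3. On RPMI-8226 it read 6.77 and 6.55 with CPI203 against 7.53 and 7.68 without. In both lines all arrays with the drug were below all arrays without it. Within a line such a separation sets few arrays against few. Its share over all genes was not counted, here or for the genes below. CD79B was 1.69-fold lower with CPI203, a log2 change of -0.76 (SE 0.13, 95% interval -1.06 to -0.46, adjusted p = 0.009436, limma). The change was -0.57 on JJN3 and -0.95 on RPMI-8226. It stayed past the threshold when any 1 of the 8 arrays was left out, at -0.91 to -0.61 (adjusted p 0.01014 to 0.04569, limma), and was -0.86 without the JJN3 control array (adjusted p = 0.02207, limma). CD79A, its partner, did not pass, at -0.03 with an interval of -0.22 to 0.16 (adjusted p = 0.8519, limma). With LenDex, CD79B changed by 0.00 with an interval of -0.30 to 0.30 (adjusted p = 0.9993, limma).

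FCER2 read 11.45 and 11.30 with CPI203 against 11.46 and 11.64 without on JJN3, and 10.37 and 10.46 with it against 10.64 and 10.66 without on RPMI-8226. The arrays with CPI203 lay below those without in both lines, narrowly so on JJN3. The change of -0.21 (SE 0.09, interval -0.41 to -0.01) did not pass (adjusted p = 0.1609, limma). With a variance trend and robust moderation in limma it did (adjusted p = 0.01701).

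CR2 read 9.95 and 9.95 with LenDex (LenDex and Combo arrays) against 10.34 and 10.58 without (CPI203 and control arrays) on JJN3. On RPMI-8226 it read 9.53 and 9.79 with LenDex against 10.00 and 10.20 without. The arrays with and without LenDex did not overlap in either line. CR2 was 1.39-fold lower with LenDex, a log2 change of -0.48 (SE 0.08, 95% interval -0.68 to -0.28, adjusted p = 0.02406, limma), of -0.51 on JJN3 and -0.44 on RPMI-8226. The call depended on having all 8 arrays: without any 1 of them the change was -0.53 to -0.42 and the adjusted p 0.05037 to 0.1034 in limma. Without the JJN3 control array it was -0.46 (adjusted p = 0.08242, limma). Without the line as a block the adjusted p was 0.2909. With CPI203, CR2 changed by -0.05 (interval -0.24 to 0.15), which did not pass.

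A measure of RNA integrity moved with LenDex on RPMI-8226. The difference between the 3′ and 5′ probe sets of actin was 0.448 and 0.391 log2 units on its LenDex and Combo arrays, against 0.226 and 0.274 on its CPI203 and control arrays. For GAPDH it was -0.087 and -0.102, against -0.152 and -0.216. On JJN3 the actin values were 0.387 and 0.406 with LenDex, against 0.307 and 0.399 without. The GAPDH values there were -0.193 and -0.189 with LenDex, against -0.22 and -0.205 without, a smaller shift in the same direction as on RPMI-8226. Their part in the CR2 change was not tested.

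MS4A1 read 11.63 and 11.70 with LenDex against 11.71 and 11.89 without on JJN3, and 11.60 and 11.48 with it against 11.70 and 12.06 without on RPMI-8226. The arrays with LenDex lay below the others within each line, narrowly so on JJN3. The change of -0.24 (SE 0.09, interval -0.45 to -0.02) did not pass (adjusted p = 0.1969, limma), and it did with a variance trend and robust moderation (adjusted p = 0.009917, limma). CD22, at -0.12 (interval -0.35 to 0.12), and CD79A, at 0.06 (interval -0.13 to 0.25), did not pass with LenDex.

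**Figure D3:**
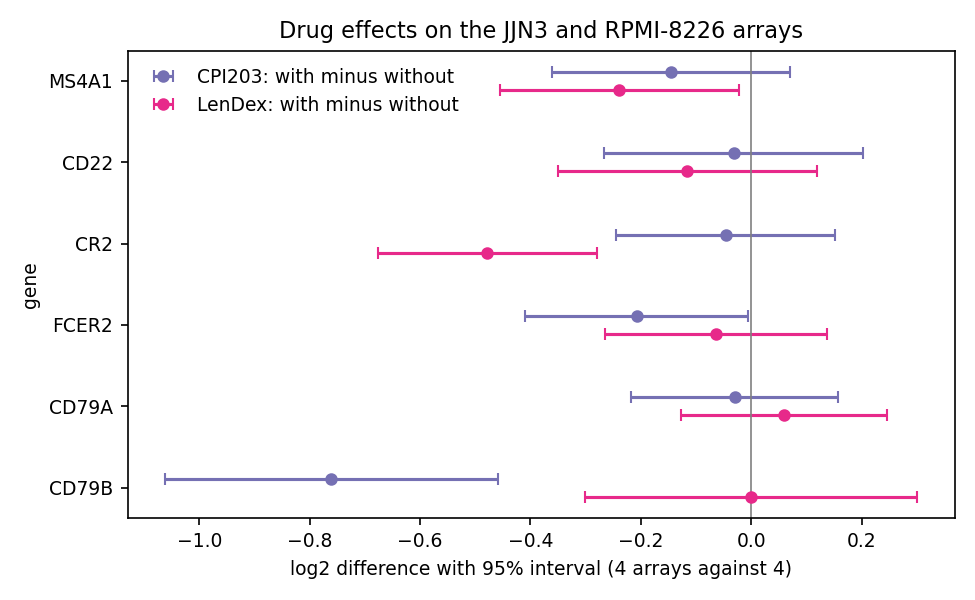
Log2 difference (x axis) with minus without CPI203, and with minus without LenDex, for each gene on the 8 JJN3 and RPMI-8226 arrays, 4 arrays against 4, with its 95% interval. CD79B lies at -0.76 for CPI203 and CR2 at -0.48 for LenDex, and CD79B lies at 0.00 for LenDex.

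A moderated F test in limma asked whether the effect of a drug depended on the line. It called 0 of 6 genes for CPI203, beside 0.323% of all genes, and 0 of 6 for LenDex, beside 0.369%. For CPI203 2 genes had an unadjusted p under 0.05. These were MS4A1 (adjusted p = 0.1539, limma), at -0.05 on JJN3, -0.24 on RPMI-8226 and 0.61 on ARP1, and CD79B (adjusted p = 0.2868, limma), at 0.11 on ARP1. For LenDex CR2 was the 1 such gene (adjusted p = 0.1591, limma), at 0.56 on ARP1. The ARP1 rises of MS4A1 and CR2 were not shared by their other probe sets. Those changed on ARP1 by -0.17 and -0.03 for MS4A1 with CPI203, and by 0.04 for CR2 with LenDex. The second CR2 probe set still differed between lines with LenDex, at -0.673 on JJN3, -0.999 on RPMI-8226 and 0.041 on ARP1. Its unadjusted p in the F test was 0.006788 (adjusted p = 0.2122, limma, probe sets tested singly). For the other MS4A1 probe sets the unadjusted p with CPI203 was 0.4758 and 0.7306. On ARP1 all 3 genes lay near the array median, where a fall could hardly be measured. A difference in response between ARP1 and the other lines was therefore not settled for these genes.

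**Figure D4:**
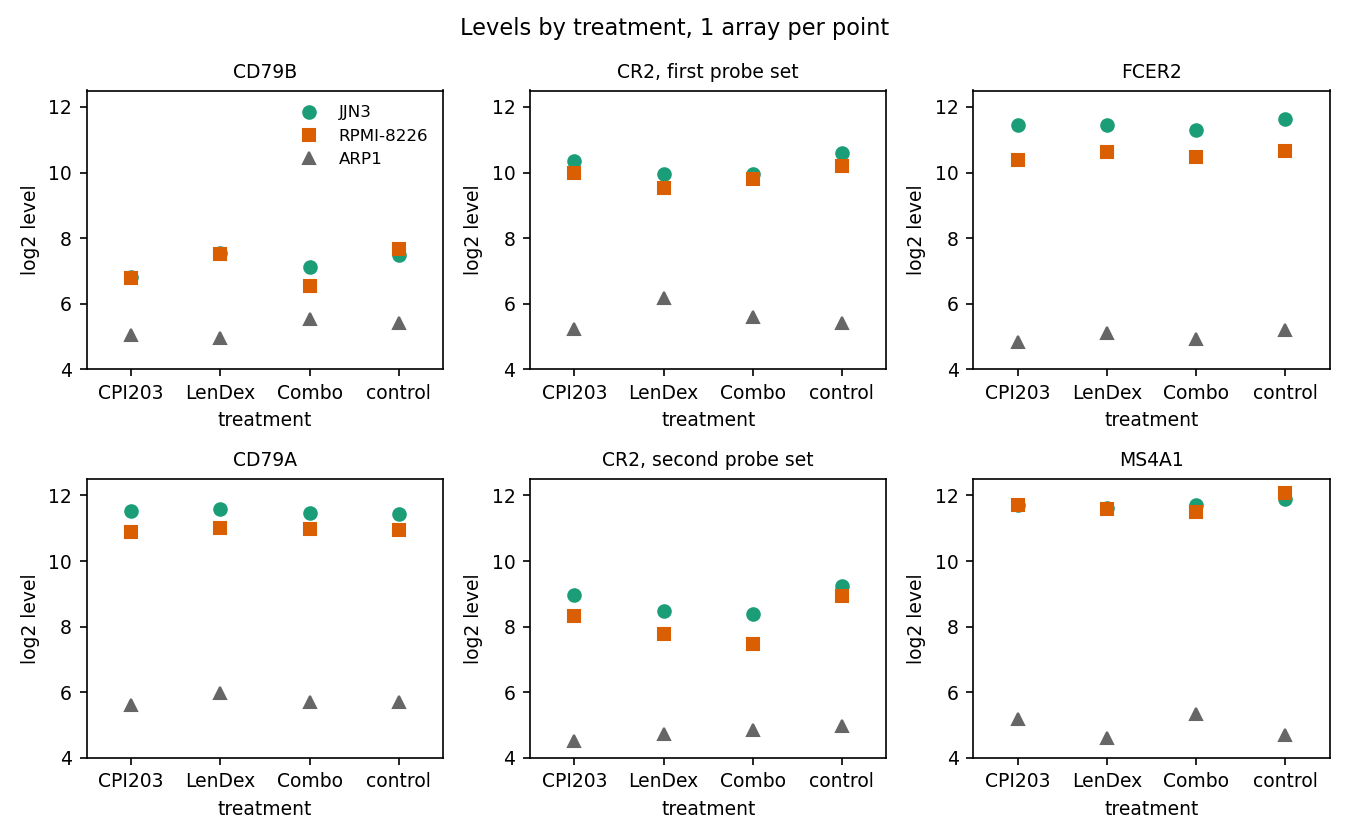
Log2 level (y axis) by treatment (x axis) for 5 genes, with both CR2 probe sets, 1 array per point, in JJN3 (circles), RPMI-8226 (squares) and ARP1 (triangles). On JJN3 and RPMI-8226, CD79B is below 7.2 on the CPI203 and Combo arrays and at 7.5 or more on the others, and both CR2 probe sets are lowest on the LenDex and Combo arrays.

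Probe sets of the same gene did not always give the same result when each was tested by itself, which raised the number of tests to 35458. The second CR2 probe set fell further with LenDex than the first, by 0.84 on the log2 scale (SE 0.11, adjusted p = 0.01097, limma). It read 8.47 and 8.38 with LenDex against 8.96 and 9.24 without on JJN3, and 7.78 and 7.47 against 8.32 and 8.93 on RPMI-8226. As on the first, no array with LenDex reached those without it.

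A probe set of MS4A1 that the main tests did not use was lower with CPI203, at -0.39 (SE 0.09, adjusted p = 0.03834, limma), where the other MS4A1 probe sets changed by -0.13 and -0.15 (adjusted p = 0.4089 and 0.4155, limma). It was also lower on JJN3 than on RPMI-8226, at -0.69 (SE 0.13, adjusted p = 0.006916, limma), and the others differed by 0.04 and 0.02. The 3 CD79A probe sets were higher on JJN3 than on RPMI-8226 by 0.53 to 0.69, and 2 of the 3 passed. For CD79B the change rests on 1 of 3 probe sets (adjusted p = 0.01245 in limma with probe sets tested singly). Of the others, which lay near 5 on all arrays, 1 changed by 0.04 with CPI203 (adjusted p = 0.875, limma) and 1 was too low to be tested. The second CD22 probe set changed by -0.45 with LenDex and did not pass (adjusted p = 0.2527, limma). With LenDex all MS4A1 probe sets changed by -0.37 to -0.20, and none passed (lowest adjusted p = 0.07748, limma). Beside these counts, 5.08% of probe sets were called lower with CPI203, 1.74% lower with LenDex, and 7.41% higher and 5.47% lower on JJN3 than on RPMI-8226.

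Related genes were followed in 6 lists. Among all genes, 24.2% were called higher and 22.4% lower on JJN3 than on ARP1, and 23.3% and 23% on RPMI-8226. On the 8 JJN3 and RPMI-8226 arrays 8.09% were called higher and 7.72% lower with CPI203, and 3.39% and 2.66% with LenDex. Most partners of the B cell receptor and its coreceptors were higher on JJN3 and RPMI-8226 than on ARP1. Of 13 tested of 16 listed genes, 10 were higher and 3 lower on JJN3 than on ARP1, with a median of 2.87, and 9 were higher and 3 lower on RPMI-8226, with a median of 3.01. Averaged over both lines, the log2 differences from ARP1 were 4.56 for PIK3CD, a lipid kinase subunit, 4.40 for PTPRC (CD45), the phosphatase that keeps receptor kinases active, and 4.29 for BLNK, the adaptor downstream of SYK. The 3 lower genes were PTPN6 (the SHP-1 phosphatase that CD22 recruits), VAV1 and FYN.

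On the 8 JJN3 and RPMI-8226 arrays CPI203 raised 2 and lowered 4 of these 13 partners. FYN, a SRC family kinase, rose by 1.25 (adjusted p = 0.0006875, limma), while BLK, a B cell kinase of the same family, fell by 0.98 (adjusted p = 0.005967) and PTPN6 fell by 0.86 (adjusted p = 0.003879). SYK, the kinase that docks on CD79A and CD79B, fell by 0.67 (adjusted p = 0.005198, limma). LenDex raised 2 and lowered 2: BLK rose by 0.91 (adjusted p = 0.01752) and SYK by 0.52 (adjusted p = 0.02697), and BLNK fell by 0.63 (adjusted p = 0.03833) and PTPRC by 0.46 (adjusted p = 0.03221, limma). The directions for BLK and SYK were thus opposite in the CPI203 and LenDex effects.

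Of 17 tested of 22 listed genes for other B cell surface proteins, 12 were higher and 0 lower on JJN3 and likewise on RPMI-8226, with medians of 1.86 and 1.59. The chemokine receptor CCR7 (7.76), the costimulatory receptor CD40 (6.85) and the maturation marker CD83 (5.75) had the largest differences of the list, as means over both lines. With CPI203, 1 gene of this list rose and 3 fell, namely TLR10 by 1.68 (adjusted p = 0.00129), FCRL2 by 1.43 (adjusted p = 0.02073) and FCGR2B, the inhibitory IgG receptor, by 1.06 (adjusted p = 0.00448, limma). With LenDex, FCGR2B rose by 1.34 (adjusted p = 0.004462), while TLR10 fell by 1.13 (adjusted p = 0.008528), CD83 fell by 1.05 (adjusted p = 0.004018) and CCR7 fell by 0.42 (adjusted p = 0.03702, limma). In the MS4A family 5 of 11 listed genes were tested, and MS4A3 alone was higher on JJN3 than on ARP1, by 0.40, with none called on RPMI-8226 or with either drug.

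Among 8 genes for ligands, the sheddase and enzymes that act on the 6 proteins, 4 were higher and 3 lower on JJN3 than on ARP1, and 2 were higher and 2 lower on RPMI-8226. ADAM10, which sheds FCER2, was 1.28 lower as a mean over both lines on the log2 scale, and IL4R, the receptor whose signal through STAT6 induces FCER2, was 3.54 higher. ST6GAL1, which makes the sialic acid ligand of CD22, fell by 0.68 with CPI203 (adjusted p = 0.007672, limma) and rose by 1.21 with LenDex (adjusted p = 0.00236, limma). NOTCH2, known to induce CR2 and FCER2, was 1.99 lower than on ARP1 as a mean over both lines (adjusted p = 6.918e-06 on JJN3 and 5.603e-06 on RPMI-8226, limma), opposite in direction to CR2 and FCER2. It rose with both treatments, by 0.80 (adjusted p = 0.001808) and 0.41 (adjusted p = 0.03164, limma). STAT6 fell by 0.59 with CPI203 (adjusted p = 0.005973, limma) and IL4R rose by 0.74 with LenDex (adjusted p = 0.01464, limma).

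Of 15 B cell transcription factors, 5 were higher and 6 lower than on ARP1 in each of the other lines. EBF1, an activator of CD79A and CD79B, was 4.20 higher and IRF8 2.59 higher over both lines, and FOXO1 was 4.68 lower. With CPI203, 4 fell and 0 rose: IKZF1 by 1.40 (adjusted p = 0.0008831), IKZF3 by 1.07 (adjusted p = 0.002843), EBF1 by 0.93 (adjusted p = 0.00129) and MEF2C by 0.79 (adjusted p = 0.001808, limma). With LenDex, EBF1 rose by 0.65 (adjusted p = 0.007489) and ETS1 by 0.58 (adjusted p = 0.02621), and MEF2C fell by 1.07 (adjusted p = 0.001187, limma).

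B cell activation genes were higher for 12 of 13 tested genes on each of JJN3 and RPMI-8226, with medians of 4.95 and 4.55. The largest were EBI3, a cytokine subunit (6.85), CCL22, a chemokine (6.48), and TRAF1, an adaptor of TNF receptors (5.74). With CPI203, 4 fell, BATF by 1.20 (adjusted p = 0.00156), TNFRSF8 by 1.17 (adjusted p = 0.002277), CD86 by 0.72 (adjusted p = 0.002654) and CD80 by 0.84 (adjusted p = 0.01085, limma). With LenDex, 4 fell and 1 rose, with a median of -0.29 beside 0.01 over all genes. TRAF1 fell by 1.05 (adjusted p = 0.003525), CD80 by 0.81 (adjusted p = 0.02653), and TNFAIP3, an inhibitor of NF-kB, rose by 0.74 (adjusted p = 0.00574, limma).

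The genes whose levels most resembled each of the 6 over the 12 arrays were, for MS4A1, HLA-DRA, TRIO and ATP1B1 (Pearson r 0.997 each), and for CD22, CD40 (0.996), CD82 and GJC1 (0.995 each). For CR2 they were BIN3 and GTSF1 (0.996 each) and BCL2A1 (0.995), and for FCER2 CCL22, TNIP1 and PLA1A (0.998 each). For CD79A they were PLA1A (0.999), SARS1 and TNFRSF10D (0.998 each), and for CD79B PILRA and CD300A (0.986 each) and SPRED2 (0.984). These values follow the gap between ARP1 and the other lines, which many genes share: 513 to 605 of the 15167 other genes reached an r of 0.95 with 5 of the 6, and 99 did with CD79B.

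Over the 8 JJN3 and RPMI-8226 arrays with each line's mean taken away, the likeness follows the 4 treatments. CD79B was most like NRROS (r 0.995), SETDB1 (0.991) and GOSR1 (0.989), and CR2 most like CDK17 (0.991), MFSD2A (0.984) and IL2RB (0.983). MS4A1 was closest to USP36 (0.990), OAS1 (0.988) and MCC (0.987), and FCER2 to CFAP97 (0.982), DDX54 (0.977) and TBC1D4 (0.971). Among the 15 pairs of the 6 genes, MS4A1 and CR2 had the highest r (0.75), followed by FCER2 and CD79B (0.73). CD79A and CD79B had an r of 0.17, and CR2 and CD79A one of -0.58, the lowest. These r describe 8 arrays that share 4 treatments and are given without a test.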

How the data were processed

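RNA from 3 lines under 4 treatments was hybridised to 12 single-colour arrays. The authors' deposited log2 levels per probe set were made by RMA (background correction, quantile normalisation and probe summary), with Affymetrix Expression Console 1.1 named in the processing notes, and compare between arrays but not between probe sets. The scale was taken from the value range, and the sources used here do not say whether the 12 arrays were normalised together. The number of arrays limits the precision.

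Of 49386 probe sets per array, 93 were controls, 45253 had a single symbol in GEO's platform annotation, 1327 several and 2713 none, and 45172 of the single symbols matched a RefSeq gene. Each of 18239 genes was represented by its probe set with the highest mean. Genes that reached a log2 level of 5 on 3 or more arrays were kept, which left 15173. They were fitted in limma 3.58.1 (R 4.3.3) with line and treatment as terms, two-sided, with Benjamini-Hochberg adjustment over all genes tested. Average drug effects on JJN3 and RPMI-8226 used those 8 arrays, and the test of line differences takes the drug effects as additive. The fit was tested on simulated data. Line is the block since same-numbered arrays are from 1 line. Deviations from group means correlated within ARP1 (0.905 to 0.938), JJN3 (0.82 to 0.884) and RPMI-8226 (0.831 to 0.888). The labels name no separate cultures, so p-values measure the spread between these arrays.

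Named genes were the 6 genes with all their probe sets, the 3 genes most like each, and from each list the 3 furthest from ARP1 and up to 3 called per drug comparison. VAV1, CD86, PAX5, and SYK and CCR7 where they ranked lower, were named after their values were seen, as were marker, immunoglobulin and drug responder genes. The genes and lists were chosen with earlier results of these data known. Alternatives were other level filters, probe sets tested singly, cyclic loess, quantile normalisation, a variance trend with robust moderation, JJN3 and RPMI-8226 averaged, no replicate block, the compared arrays alone, and leaving out each line or array.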

Additional observations from a re-analysis of the deposited data

How the results depend on the processing

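Of 275 counts of called genes under alternative settings, 252 stayed within 1.5 times the value reported, and of 946 values of single genes 910 kept their direction and side of the threshold. All 6 genes stayed higher than on ARP1 under every alternative run, each by the probe set used in the main tests. The other probe sets of CD79B were not called higher. Between JJN3 and RPMI-8226 the count of called genes was 4 with the compared arrays alone, against 2, and 2 to 3 without single arrays. Over all 12 arrays, where 0 genes were called, a mean log2 level of 6 or more gave 1 for Combo and 1 for the CPI203 average. The gene was FCER2, whose lowest adjusted p over the alternatives was 0.04769 for Combo and 0.02994 for the CPI203 average (limma). These comparisons include ARP1, where FCER2 lay under the array medians. Leaving out lines or arrays gave 0 to 1 for CPI203, LenDex and either average effect and 0 to 2 for Combo, and the calls came without ARP1 arrays: without that line CD79B changed by -0.80 with CPI203 (adjusted p = 0.04664, limma). On the 8 JJN3 and RPMI-8226 arrays, a variance trend with robust moderation gave 2 genes, against 1, for CPI203 and for LenDex. In the test of line differences it gave 1, against 0, for each drug, MS4A1 with CPI203 (adjusted p = 0.005934) and CR2 with LenDex (adjusted p = 0.007684, limma). The rises of MS4A1 and CR2 on ARP1 were not shared by their other probe sets. The second CR2 probe set fell with LenDex on JJN3 and RPMI-8226 and changed little on ARP1, where it lay under the array medians. With no replicate block LenDex called 0 on those arrays and CPI203 still 1, and over all genes the block moved the calls to 2399 from 596 for CPI203 and to 918 from 120 for LenDex. Leaving out single arrays gave 0 genes for LenDex and 1 for CPI203.

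Directions that turned belonged to values that never passed, and only when an array was left out: MS4A1 (-0.12 to 0.15) and CD79B (-0.11 to 0.24) between JJN3 and RPMI-8226, CR2 (-0.10 to 0.0096), CD22 (-0.12 to 0.052) and CD79A (-0.063 to 0.003) with CPI203, and CD79B (-0.15 to 0.15) with LenDex, on the 8 arrays. Gene counts over all genes moved by more than 1.5 times in many settings: with JJN3 and RPMI-8226 averaged, the CPI203 average effect called 0 genes against 1105 and the LenDex one 4 against 645. On the 8 arrays, leaving out single arrays gave 1043 to 2022 against 2399 for CPI203 and 219 to 530 against 918 for LenDex. The cause of these shifts was not tested. Leaving out a whole line from the 8 arrays gives no test, since no residual degrees of freedom remain, and averaging or dropping lines was not run for the line comparisons. The lines' arrays may not be independent cultures, and levels near the array median on ARP1 limit what a fall can show there.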
